A study of Saccharomyces cerevisiae with 12 samples.

Results

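The genes described here are 45 budding yeast genes for nucleoporins outside the Nup84 complex, for karyopherins and for mRNA export factors, out of 5636 genes measured. They were chosen by symbol and not by a cut on any measured value, although earlier results of these data were known. All 45 had at least 1 probe, and none was removed by a filter on low values. Total RNA of 3 deletion strains grown with 2% glucose was hybridised against wild-type RNA grown in the same medium, on 12 two-colour arrays. The labels name them a nup84 null, a gcr1 null and a nup84 gcr1 double null, and 4 arrays were run for each. The labels give no strain background, no markers and no account of how the alleles were made, and they name no feature other than GCR1 and NUP84 that sets the strains apart from wild type.

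Nuclear pores are channels through the nuclear envelope, built from a scaffold of nucleoporins anchored by membrane proteins. Nucleoporins rich in phenylalanine-glycine (FG) repeats line the channel. Karyopherins carry cargo through it, importins inward and exportins outward, with direction given by the small GTPase Ran. Messenger RNA leaves by another route, through the receptor Mex67-Mtr2, which adaptors and the helicase Sub2 help to load. Gcr1 is an activator of glycolytic and ribosomal protein genes, and Nup84 is a scaffold nucleoporin of the pore.

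Every value below is a log2 ratio of deletion strain over wild type, so that 0 is the wild-type level and -1 is a level 2-fold lower. Ratios carry no level, so genes are compared only by their change. The 4 arrays of a strain are 2 biological samples with a dye swap each, and n = 2 samples per strain holds throughout. The labels do not say which arrays belong to 1 sample. Errors are standard errors (SE) from limma, and since the spread is pooled, the SE of a gene is equal in all strains. A gene is said to have risen or fallen where its Benjamini-Hochberg adjusted p over all 5636 genes was under 0.05. The labels do not say that the samples were separate cultures, so p-values measure the spread between these samples only.

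The deleted genes were read as a check of the labels. NUP84 read -4.27, -3.26, -2.75 and -2.50 on arrays 1 to 4 of the nup84 null, and from -3.58 to -1.80 in the strain labelled double null. GCR1 went against its label, at 0.94, 1.36, 0.85 and 1.17 in the strain labelled gcr1 null and 0.85, 0.96, 0.53 and 0.79 in the strain labelled double null. Where its probes lie in the gene is not given here. The deletion of GCR1, and with it the direction of the ratios in the strain labelled gcr1 null, therefore rests on the labels. Across the 45 genes, arrays 1 and 3 correlated at 0.840, 0.813 and 0.930 in the strain labelled gcr1 null, the nup84 null and the strain labelled double null, and arrays 2 and 4 at 0.889, 0.846 and 0.805. The values were 0.387, 0.560 and 0.175 for arrays 1 and 4, and 0.497, 0.552 and 0.473 for arrays 2 and 3. Over all genes they were 0.818, 0.742 and 0.826 for arrays 1 and 3, 0.814, 0.735 and 0.748 for arrays 2 and 4, 0.716, 0.575 and 0.469 for arrays 1 and 4, and 0.707, 0.656 and 0.673 for arrays 2 and 3. Arrays of the same dye orientation correlated at 0.837, 0.794 and 0.719 (1 and 2) and 0.891, 0.852 and 0.767 (3 and 4). These correlations describe genes on shared arrays and do not settle which arrays are swaps. Auxotrophic marker genes also differed from wild type, with LEU2 at 1.72 and 2.02 and URA3 at 2.32 and 2.02 in the strains labelled gcr1 null and double null, ADE2 at 1.34 in the nup84 null and 0.81 in the strain labelled double null, and LYS2 at -1.90 and -1.04 in the strains labelled gcr1 null and double null. Of the 7 marker genes read, HIS3, TRP1 and MET17 passed in no strain. TRP1 read -1.16, -1.34, 1.01 and 0.40 on arrays 1 to 4 of the strain labelled gcr1 null. HIS3 read -1.15, -0.85, 0.91 and 2.36 in the strain labelled double null, so each changed sign there with the dye orientation. The part of the marker genes in the results was not tested.

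In each strain more transport genes lay past the test below wild type than above it. In the strain labelled gcr1 null 14 fell and 1 rose, in the nup84 null 3 fell and none rose, and in the strain labelled double null 16 fell and 1 rose. The gene that rose was POM33 in both cases. For the strain labelled gcr1 null these directions rest on the labels, and with the sign turned 14 would have risen and 1 fallen. Cytosolic ribosomal protein genes had a median of -2.27 in it with the sign used here. Their median was -2.10 in the strain labelled double null, where NUP84 lay below wild type on every array. As shares of the 45 genes these are 33.3%, 6.67% and 37.8% called, against 34.8%, 16.7% and 39.5% of all genes tested, so these shares were near or below those of all genes. The shares that fell were 31.1%, 6.67% and 35.6%, against 17.7%, 8.09% and 18.9% of all genes. The shares that rose among all genes were 17.2%, 8.61% and 20.5%. The median over the 45 genes was -0.42, -0.20 and -0.56, beside 0.03, -0.01 and 0.03 over all genes. KAP122, KAP123 and NMD5, all importin genes, fell in all 3 strains, 26 genes passed in none, and 13 passed in both strains labelled as lacking GCR1. The matching shares over all genes are not given here, so these overlaps are not read as particular to the 45 genes.

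**Figure D1:**
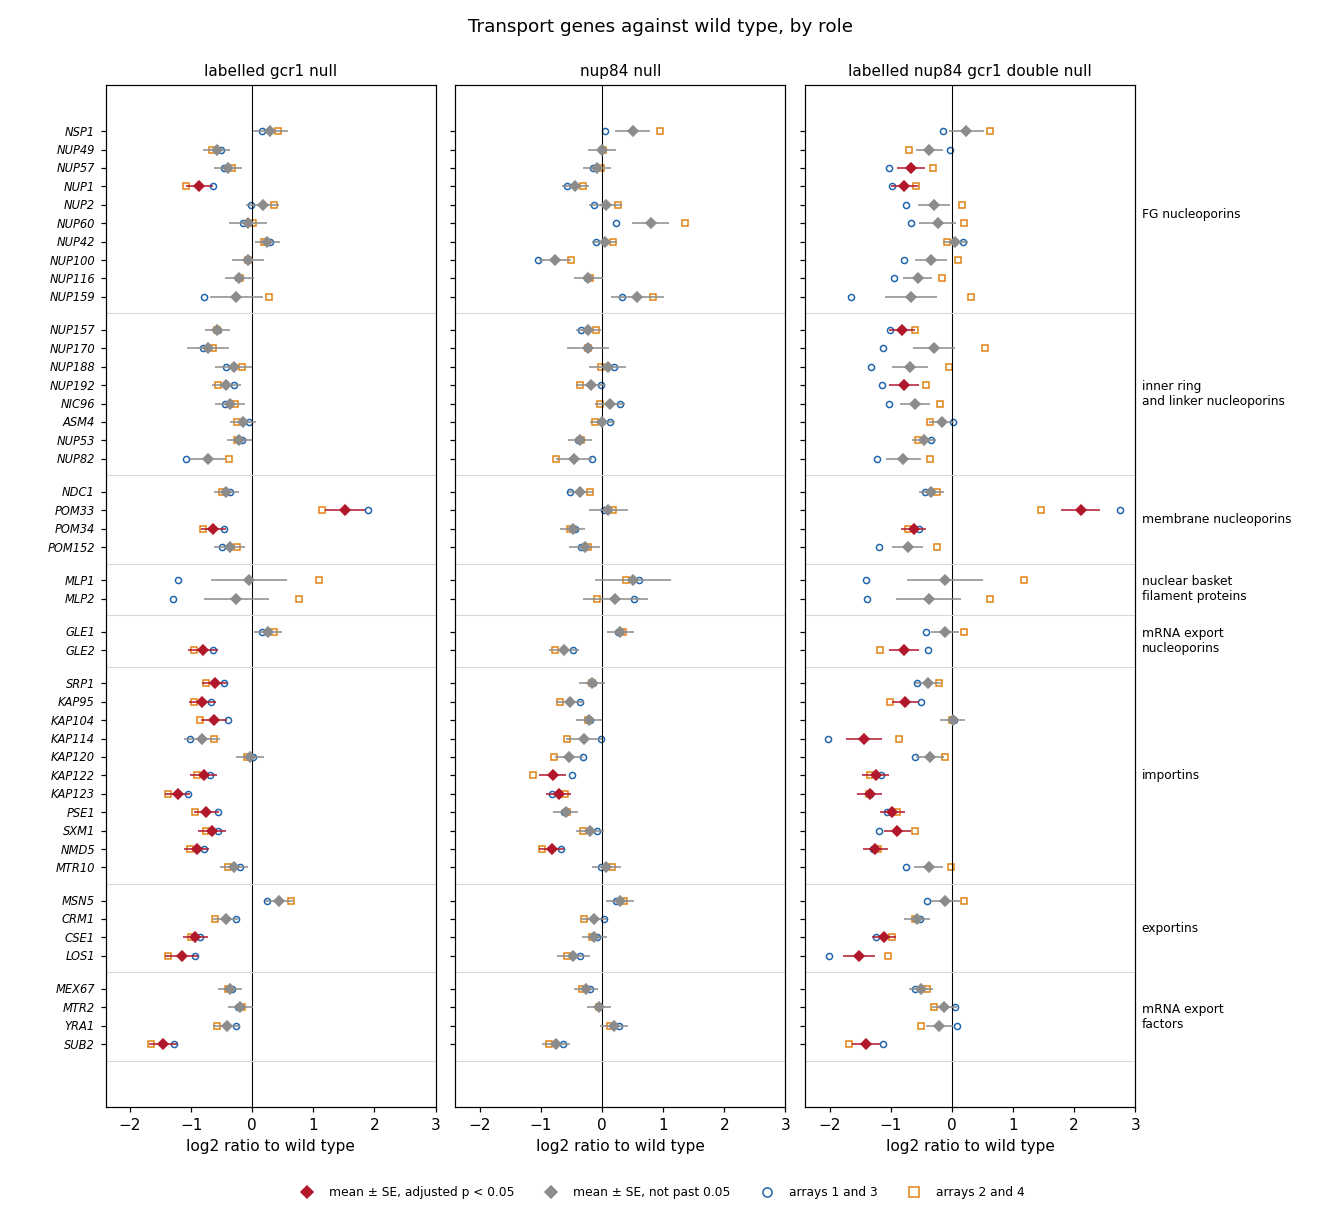
Log2 ratio to wild type of the 45 genes, grouped by role, in each strain (horizontal axes). Diamonds are means of 4 arrays with the pooled SE, red where the adjusted p is under 0.05, and open symbols are the means of arrays 1 and 3 and of arrays 2 and 4. Importins sit mostly left of 0 in all panels, POM33 stands alone on the right in 2 of them, and the open symbols lie far apart in the strain labelled double null.

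The counts depended on single array pairs. In every fit named here the count over all genes moved the same way as that of the 45 genes. These moves are therefore not read as particular to the transport genes. Of the 45 genes 2 (KAP123 and SUB2) passed in the strain labelled gcr1 null without its arrays 1 and 3, and 1 (POM33) without arrays 2 and 4. Without either of these pairs of the nup84 null, 8 passed in the strain labelled gcr1 null and 11 in the strain labelled double null. For the nup84 null none passed without arrays 1 and 3, or 2 and 4, of its own or of the strain labelled gcr1 null, and 9 passed without either such pair of the strain labelled double null. Leaving out arrays 1 and 4, or 2 and 3, of any strain gave 31 to 40, 24 to 32 and 36 to 38 genes, because the pairing that is then left has the smaller spread. With each strain fitted alone, 19, 13 and 8 of the 45 genes passed. Over all genes 2465, 2154 and 1339 passed in these fits, where the reported counts were 1964, 941 and 2224. In each strain the transport genes that passed were those with the largest absolute means. The fits of single strains therefore do not measure the spread of single genes. The 8 of the strain labelled double null were CSE1, KAP114, KAP122, KAP123, LOS1, NMD5, POM33 and SUB2, and the calls of GLE2, KAP95, NUP1, NUP157, NUP192, NUP57, POM34, PSE1 and SXM1 were lost.

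Importins gave the most calls. These receptors bind cargo in the cytoplasm and release it in the nucleus when they bind Ran. Of the 11 importin genes 8 fell in the strain labelled gcr1 null, 3 in the nup84 null and 7 in the strain labelled double null, and none rose. These are 72.7%, 27.3% and 63.6% of them, beside 17.7%, 8.09% and 18.9% of all genes. Their medians were -0.75, -0.52 and -0.89. All 11 lay below 0 in the strain labelled gcr1 null, and 10 of 11 in each of the other strains. The medians over all genes were 0.03, -0.01 and 0.03. Cytosolic ribosomal protein genes, whose products are cargo of several importins, had medians of -2.27, -1.11 and -2.10 over 135 genes in the same strains. Their part in the importin values was not tested.

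KAP123 encodes the main importer of ribosomal proteins. It read -0.86, -1.18, -1.24 and -1.59 on arrays 1 to 4 of the strain labelled gcr1 null. The nup84 null gave -0.70, -0.55, -0.92 and -0.67, and the strain labelled double null -1.06, -1.14, -1.62 and -1.56. All 12 arrays lay below wild type, and the nup84 null overlapped the strain labelled gcr1 null at 1 array. The means were -1.22 ± 0.20 (SE; adjusted p = 0.00254), -0.71 ± 0.20 (0.0462) and -1.35 ± 0.20 (0.00129), or 2.33-fold, 1.64-fold and 2.54-fold lower. The call in the strain labelled gcr1 null was lost without its arrays 2 and 4, where the mean was -1.05. That in the nup84 null was lost without its arrays 1 and 3, or 2 and 4, with means of -0.61 and -0.81. The call in the nup84 null was also lost with 1 probe per gene (adjusted p = 0.0526). The call of the strain labelled double null held in every setting run.

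NMD5 encodes an importer whose cargo includes the elongation factor TFIIS and the kinase Hog1. On arrays 1 to 4 it read -0.65, -0.89, -0.94 and -1.13 in the strain labelled gcr1 null. It read -0.63, -0.93, -0.70 and -1.03 in the nup84 null, and -1.17, -1.20, -1.43 and -1.23 in the strain labelled double null. The ranges of the strain labelled gcr1 null and the nup84 null overlapped, and every array of the strain labelled double null was lower than both. The means were -0.91, -0.83 and -1.26, each ± 0.20 (adjusted p = 0.0096, 0.0285 and 0.00179). The strain labelled double null differed from the strain labelled gcr1 null by -0.35, with a 95% interval from -1.01 to 0.31, so this lower position was not past the test.

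KAP122 encodes the importer of the general transcription factor TFIIA. It read -0.83, -0.67, -0.55 and -1.13 in the strain labelled gcr1 null. The nup84 null gave -0.53, -1.24, -0.46 and -1.02, and the strain labelled double null -1.33, -1.70, -0.99 and -0.96. All arrays were below wild type, and the ranges of the 3 strains overlapped. Its means of -0.80, -0.81 and -1.25, each ± 0.23, passed in every strain (adjusted p = 0.0251, 0.0422 and 0.00304). Over the 3 strain means, NMD5 was the gene nearest to KAP122 among the 45, at a distance of 0.11 on the log2 scale.

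KAP114, whose product imports the TATA-binding protein and histones, passed in the strain labelled double null alone. Its arrays there read -1.81, -0.77, -2.23 and -0.95, a mean of -1.44 ± 0.30 (adjusted p = 0.00576). Arrays 1 and 3 were lower than arrays 2 and 4 by 1.16, reading -2.02 and -0.86 as pair means. Its values were -0.75, -0.46, -1.27 and -0.80 in the strain labelled gcr1 null, and in the nup84 null 0.13, -0.41, -0.16 and -0.73. The difference between the strain labelled double null and the nup84 null was -1.15 (95% interval -2.11 to -0.19, adjusted p = 0.247) and did not pass.

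The importin alpha and beta genes, SRP1 and KAP95, encode the classical import receptor. KAP95 read -0.45, -0.90, -0.89 and -1.02 in the strain labelled gcr1 null, -0.27, -0.45, -0.47 and -0.91 in the nup84 null, and -0.19, -0.76, -0.83 and -1.28 in the strain labelled double null. The 3 ranges overlapped almost wholly. KAP95 fell to -0.82 ± 0.22 and -0.76 ± 0.22 in the strains labelled gcr1 null and double null (adjusted p = 0.0219 and 0.026), and read -0.52 in the nup84 null without passing. SRP1 fell to -0.62 ± 0.21 in the strain with the gcr1 null label (adjusted p = 0.0489), and its call was lost when 1 probe per gene was used (adjusted p = 0.0522). In the other strains SRP1 read -0.16 and -0.39.

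PSE1, an importer of ribosomal proteins and transcription factors, fell to -0.75 and -0.97 in the strains labelled gcr1 null and double null (adjusted p = 0.0216 and 0.00624). SXM1, the importer of the tRNA-binding protein Lhp1, fell to -0.66 and -0.89 there (adjusted p = 0.0492 and 0.0133). The first of these calls was lost with 1 probe per gene (adjusted p = 0.0508). KAP104, which imports the mRNA-binding proteins Nab2 and Hrp1, fell to -0.63 ± 0.21 in the strain with the gcr1 null label (adjusted p = 0.0451) and read 0.01 in the strain labelled double null. The importins that passed nowhere were KAP120 and MTR10. KAP120 read -0.04, -0.54 and -0.36, and MTR10, the import receptor gene for the mRNA-binding protein Npl3, read -0.30, 0.07 and -0.38.

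Exportins divided by gene. LOS1, the tRNA export receptor gene, and CSE1, whose product returns Srp1 to the cytoplasm, fell in the strains labelled gcr1 null and double null. CRM1, the receptor for leucine-rich export signals, and MSN5, which exports phosphorylated proteins, passed in no strain. None of the 4 passed in limma in the nup84 null, and none had an unadjusted p under 0.05.

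LOS1 read -1.01, -1.43, -0.87 and -1.32 in the strain labelled gcr1 null. It read -0.42, -0.67, -0.30 and -0.48 in the nup84 null, and -2.14, -1.20, -1.88 and -0.87 in the strain labelled double null. Every array of the nup84 null was nearer to wild type than every array of the other strains. LOS1 fell to -1.16 ± 0.27 and -1.52 ± 0.27 (adjusted p = 0.0105 and 0.00261). Its mean of -0.47 in the nup84 null did not pass. The strain labelled double null differed from the nup84 null by -1.05 (95% interval -1.91 to -0.19, adjusted p = 0.235).

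CSE1 read -0.58, -0.76, -1.13 and -1.26 in the strain labelled gcr1 null and -0.84, -0.75, -1.65 and -1.22 in the strain labelled double null. The nup84 null gave 0.17, 0.07, -0.34 and -0.40, on both sides of wild type and apart from the ranges of the other strains. The falls were -0.93 ± 0.20 and -1.11 ± 0.20 (adjusted p = 0.00775 and 0.00297). Arrays 3 and 4, with exchanged dyes, read lower than arrays 1 and 2 in each strain, and the mean of a strain holds both orientations equally. Compared with the nup84 null, the strain labelled gcr1 null differed by -0.81 (95% interval -1.45 to -0.16, adjusted p = 0.26) and the strain labelled double null by -0.99 (-1.63 to -0.34, adjusted p = 0.15). CRM1 read -0.44, -0.13 and -0.57, and MSN5 0.44, 0.29 and -0.10.

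Among the 4 mRNA export factors SUB2 alone passed. It encodes the RNA helicase that joins the export machinery to nascent transcripts. It read -1.01, -1.29, -1.56 and -2.01 in the strain labelled gcr1 null, -0.40, -0.51, -0.87 and -1.21 in the nup84 null and -0.71, -1.11, -1.54 and -2.26 in the strain labelled double null. The 3 ranges overlapped, and within each strain the swapped arrays 3 and 4 read lowest. SUB2 fell to -1.47 ± 0.23 (2.76-fold lower, adjusted p = 0.00178) and -1.41 ± 0.23 (2.65-fold lower, 0.00175). In the nup84 null its mean of -0.75 had an adjusted p of 0.055.

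The export receptor genes MEX67 and MTR2 read between -0.50 and -0.05 in the 3 strains, and no value passed. YRA1, the adaptor gene, read -0.14, -0.32, -0.39 and -0.83 in the strain labelled gcr1 null and 0.37, 0.21, 0.18 and 0.04 in the nup84 null. The arrays of these strains lay on opposite sides of wild type. Their difference was -0.62 (95% interval -1.35 to 0.11, adjusted p = 0.49). Of the nucleoporins that act in mRNA export, GLE2 fell to -0.80 ± 0.25 and -0.79 ± 0.25 in the strains labelled gcr1 null and double null (adjusted p = 0.0342 and 0.0329) and read -0.63 in the nup84 null. GLE1, an activator of the helicase Dbp5, read 0.26, 0.30 and -0.11.

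**Figure D2:**
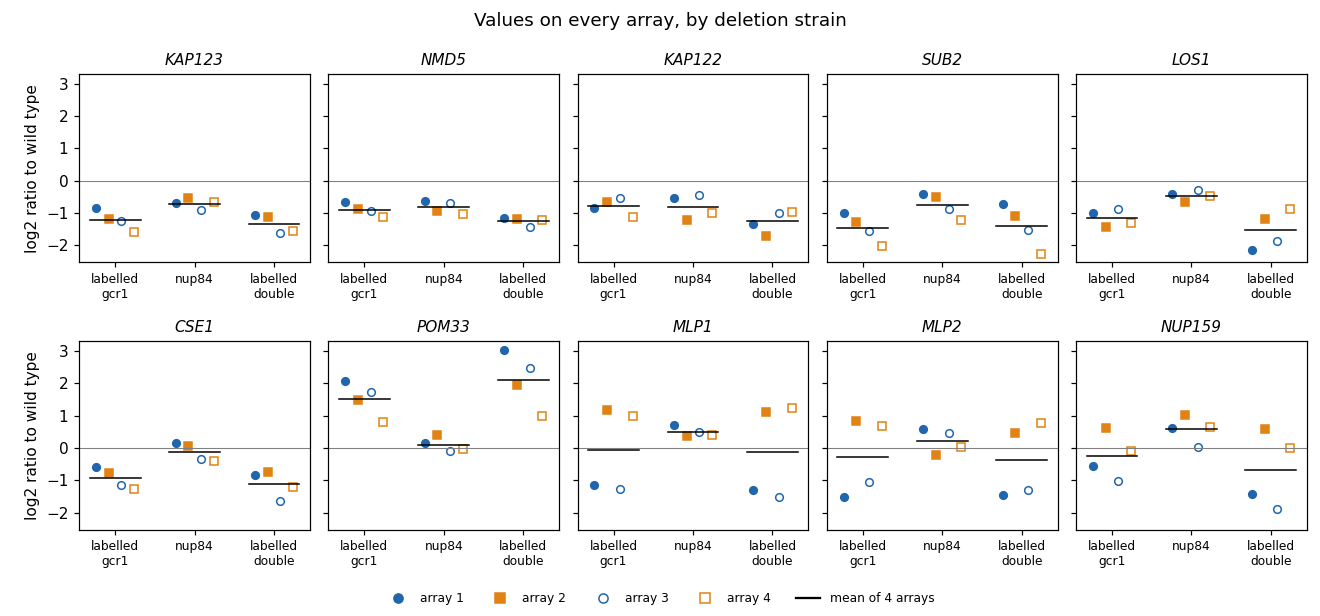
Log2 ratio to wild type (vertical axis) on each of the 4 arrays for 10 genes in the 3 strains. Filled symbols are arrays 1 and 2, open symbols arrays 3 and 4 with exchanged dyes, circles arrays 1 and 3, squares arrays 2 and 4, and lines the mean of 4 arrays. KAP123, NMD5, KAP122 and SUB2 lie below 0 on all 12 arrays, whereas MLP1 and MLP2 lie below 0 on arrays 1 and 3 and above 0 on arrays 2 and 4 in the strains labelled gcr1 null and double null.

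Membrane nucleoporins anchor the pore in the envelope. POM33 was the only one of the 45 genes to rise in the reported counts. Other settings called more genes higher, among them NUP60 in the nup84 null. On arrays 1 to 4 POM33 read 2.06, 1.49, 1.73 and 0.79 in the strain labelled gcr1 null and 3.03, 1.95, 2.47 and 0.98 in the strain labelled double null. It read 0.15, 0.40, -0.09 and -0.05 in the nup84 null, below every array of the other strains. It rose to 1.52 ± 0.32 (2.86-fold, adjusted p = 0.00699) and 2.11 ± 0.32 (4.31-fold, adjusted p = 0.00129). Without arrays 1 and 3 of the first of these strains the rise there was 1.14 and did not pass (adjusted p = 0.124). Its difference between the strain labelled double null and the nup84 null, 2.00 (95% interval 0.97 to 3.03), had an adjusted p of 0.0929, and that between the strain labelled gcr1 null and the nup84 null, 1.41 (0.38 to 2.45), of 0.205. No other gene of the 45 lay near it, the nearest over the strain means being NSP1 at a distance of 2.27.

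POM34, another pore membrane gene, went the other way, falling to -0.64 ± 0.20 and -0.63 ± 0.20 in the strains labelled gcr1 null and double null (adjusted p = 0.0403 and 0.0389). The second call was lost with scale normalization (adjusted p = 0.0621). It read -0.48 in the nup84 null. NDC1 read -0.43, -0.36 and -0.34 and POM152 -0.37, -0.29 and -0.73, and neither passed.

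FG nucleoporins were called at shares near or below those of all genes. Of 10 genes 1 fell in the strain labelled gcr1 null, none in the nup84 null and 2 in the strain labelled double null, beside 17.7%, 8.09% and 18.9% of all genes, with medians of -0.14, 0.02 and -0.35. In the nup84 null limma found 2 with an unadjusted p under 0.05, NUP100 and NUP60. NUP1, a nuclear basket FG nucleoporin gene, read -0.87, -1.44, -0.43 and -0.72 in the strain labelled gcr1 null, -0.68, -0.14, -0.45 and -0.48 in the nup84 null and -1.04, -0.79, -0.93 and -0.37 in the strain labelled double null. All 12 arrays were below wild type and the ranges overlapped. It fell to -0.86 ± 0.22 and -0.78 ± 0.22 in the strains labelled gcr1 null and double null (adjusted p = 0.0165 and 0.0228). The first call was lost without arrays 1 and 3 of its strain, where the mean was -1.08, and without arrays 2 and 4, where it was -0.65. It was kept without arrays 1 and 4, or 2 and 3.

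The central channel genes NSP1, NUP49 and NUP57 did not move as 1 unit. NUP57 fell to -0.67 ± 0.23 in the strain with the double null label (adjusted p = 0.0486), with -0.40 and -0.08 in the strain labelled gcr1 null and the nup84 null. That call was lost with scale normalization, with 1 probe per gene and with that strain fitted alone (adjusted p = 0.0832, 0.0508 and 0.241). It was also lost in 5 of 12 fits without an array pair. NSP1 read 0.30, 0.50 and 0.24, and NUP49 -0.58, 0.00 and -0.37, with no call. NUP2 and NUP42 read between -0.29 and 0.24. NUP60, a basket FG nucleoporin gene, read 0.07, 1.42, 0.40 and 1.28 in the nup84 null, so that arrays 2 and 4 were high and arrays 1 and 3 near wild type. Its mean there, 0.79 ± 0.31, did not pass (adjusted p = 0.114). It passed as higher with scale normalization (adjusted p = 0.0456), with 4 arrays as replicates (0.0164) and with the nup84 null fitted alone (0.000872). In that last fit the transport genes that passed were those with the largest absolute means. Its p-value therefore does not measure the split of NUP60 between array pairs. NUP60 read -0.06 and -0.23 in the other strains.

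The 4 paralog pairs among the nucleoporins gave paired values as follows. NUP100 and NUP116 encode the GLFG nucleoporins. In the nup84 null NUP100 read -0.78 ± 0.26 (adjusted p = 0.0748) beside -0.22 ± 0.24 for NUP116. They read -0.34 and -0.56 in the strain labelled double null, and in the strain labelled gcr1 null -0.07 and -0.22. No value of either gene passed.

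NUP157 and NUP170 encode the large inner ring proteins. They read -0.57 and -0.72 in the strain labelled gcr1 null, -0.22 and -0.23 in the nup84 null and -0.81 and -0.29 in the strain labelled double null. Only the value of NUP157 in the last strain passed (adjusted p = 0.0151). The arrays of NUP170 there were split, at -1.01, 0.44, -1.24 and 0.64, while those of NUP157 ran from -1.19 to -0.43. NUP53 and ASM4, which encode smaller linker nucleoporins, read -0.21 and -0.15, -0.37 and 0.01, and -0.45 and -0.17, with no call.

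Of the 8 inner ring and linker genes none passed in the strain labelled gcr1 null or the nup84 null, where limma gave 2 and 0 with an unadjusted p under 0.05, and 2 fell in the strain labelled double null. The second was NUP192 at -0.78 ± 0.24 (adjusted p = 0.0301), which read -0.43 and -0.19 in the other strains. All 8 lay below 0 in both strains labelled as lacking GCR1. NUP82, a cytoplasmic-side scaffold gene, read -0.73, -0.46 and -0.79, with adjusted p of 0.082, 0.307 and 0.0569. NIC96 and NUP188 read -0.36 and -0.31, 0.14 and 0.09, and -0.61 and -0.68.

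MLP1 and MLP2 encode the long coiled-coil filaments of the nuclear basket, and their arrays split within strains. MLP1 read -1.15, 1.19, -1.28 and 0.99 in the strain labelled gcr1 null and -1.31, 1.11, -1.52 and 1.25 in the strain labelled double null. The nup84 null gave 0.72, 0.38, 0.50 and 0.40. MLP2 read -1.52, 0.84, -1.06 and 0.69, then -1.47, 0.47, -1.30 and 0.77 in the same strains, and 0.58, -0.21, 0.47 and 0.03 in the nup84 null. In both strains labelled as lacking GCR1, arrays 1 and 3 lay at or under -1.06 for both genes and arrays 2 and 4 at or over 0.47. The mean near 0 therefore stands for no array. Neither gene passed in any strain. MLP1 averaged -0.06 ± 0.62 and -0.12 ± 0.62, with 95% intervals from -1.47 to 1.35 and from -1.53 to 1.30.

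NUP159, a cytoplasmic filament FG nucleoporin gene, split in the same direction. It read -1.42, 0.60, -1.87 and 0.02 in the strain labelled double null and -0.56, 0.62, -1.02 and -0.08 in the strain labelled gcr1 null. In the strain labelled double null NUP188 averaged -1.33 over arrays 1 and 3 and -0.04 over arrays 2 and 4. By the size of the difference between array pairs MLP1 ranked 15th of 5636 in the strain labelled gcr1 null and 25th in the strain labelled double null, against 3075th in the nup84 null. MLP2 ranked 36th and 88th in the first 2.

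The 3 widest splits among the 45 genes in both strains labelled as lacking GCR1 were those of MLP1, MLP2 and NUP159, which are long genes. MLP1 has a coding length of 5.63 kb and MLP2 of 5.04 kb in the yeast annotation of assembly R64. POM33, at 0.84 kb, was split in the other direction. It was higher on arrays 1 and 3 by 1.29 in the strain labelled double null and by 0.76 in the strain labelled gcr1 null. The widest split of the nup84 null was that of NUP60, at 1.62 kb. Among all genes of 4 kb or longer, the median of arrays 1 and 3 minus arrays 2 and 4 was -0.77 in the strain labelled double null, -0.18 in the strain labelled gcr1 null and -0.20 in the nup84 null. Among genes under 1 kb it was 0.35, 0.30 and 0.08. Spearman's rho of this difference with coding length was -0.45, -0.19 and -0.40 over all genes in the strain labelled gcr1 null, the nup84 null and the strain labelled double null. Over the 45 genes it was -0.28, 0.12 and -0.66. These coefficients describe genes on the same arrays and carry no test.

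Mating-type genes also differed between arrays, within the pairs as well as between them. The 6 MATa-specific genes had medians of -1.46, -0.20, -2.01 and 1.63 on arrays 1 to 4 of the strain labelled double null, with 5, 4, 5 and 0 of 6 below 0. For the strain labelled gcr1 null the medians were -0.62, -0.55, -1.06 and 1.17, again with 5, 4, 5 and 0 below 0, and for the nup84 null 0.02, 0.32, -0.17 and 1.35, with 3, 1, 3 and 0. On array 2 of the strains labelled gcr1 null and double null, STE6 read 1.25 and 0.63 and BAR1 read 0.34 and 0.03. The other MATa-specific genes lay below 0 on these arrays. The 4 MATalpha-specific genes had medians of 0.15, -0.62, 1.55 and -1.66 in the strain labelled double null, 0.05, -0.56, 1.48 and -1.11 in the strain labelled gcr1 null and -0.60, 0.21, 0.90 and -0.25 in the nup84 null. The part of mating type or of gene length in the transport genes' splits was not tested.

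**Figure D3:**
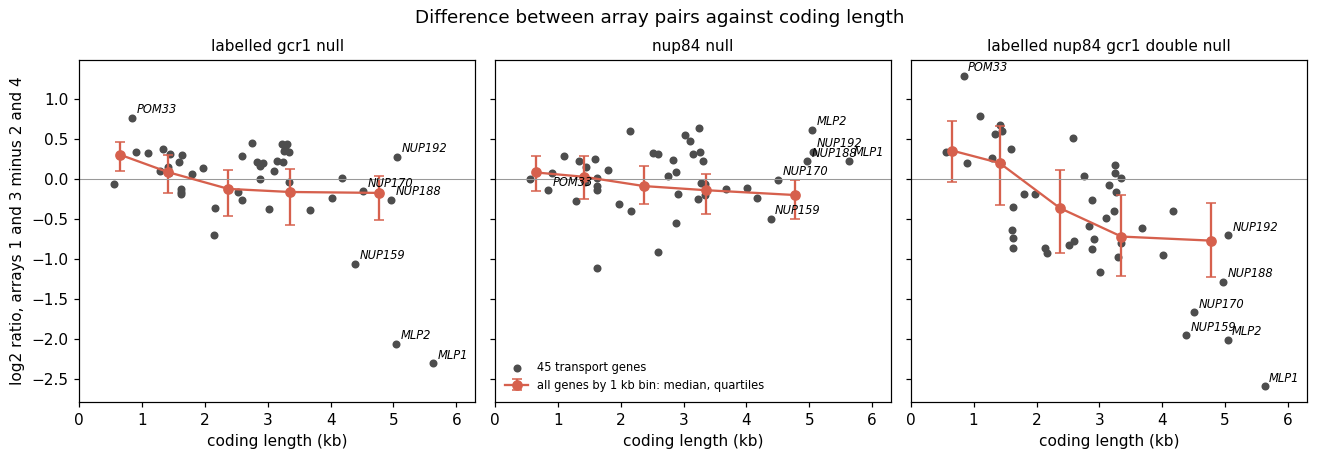
Difference in log2 ratio between arrays 1 and 3 and arrays 2 and 4 (vertical axis) against coding length in kb (horizontal axis), for the 45 genes (grey) and for all genes in bins of 1 kb, the last open-ended (red, median with quartiles). In the strain labelled double null the bin medians run from 0.35 for the shortest genes to -0.77 for the longest, and MLP1 and MLP2 lie lowest among the 45 genes in the strains labelled gcr1 null and double null.

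Differences between the strains were tested next, to ask how the strain labelled double null compares with each strain labelled as a single deletion. For none of the 45 genes did a difference pass in limma. The counts with an unadjusted p under 0.05 were 2 for the strain labelled gcr1 null minus the nup84 null, 5 for the strain labelled double null minus the nup84 null, 0 for the strain labelled double null minus the strain labelled gcr1 null, and 1 for the strain labelled double null set against the other 2 strains added. The lowest adjusted p were 0.205, 0.0929, 0.978 and 0.291. Over all genes, 0.515%, 0.745%, 0.0% and 0.0% passed in these contrasts. The share of all genes with an unadjusted p under 0.05 is not given here, so such counts have no background to be read against. With the 4 arrays as separate replicates, 1, 4, 0 and 1 of the 45 genes passed, beside 401, 522, 66 and 655 of all 5636 genes.

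The 5 genes with an unadjusted p under 0.05 between the strain labelled double null and the nup84 null were POM33, CSE1, LOS1, KAP114 and NUP60. NUP60 differed by -1.03 (95% interval -2.02 to -0.03). The median difference over the 45 genes was -0.40, beside -0.03 over all genes. Between the strains labelled double null and gcr1 null the differences ran from -0.62 for KAP114 to 0.64 for KAP104, with 95% intervals of -1.58 to 0.34 and -0.03 to 1.31.

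Against the sum of the strain labelled gcr1 null and the nup84 null, the 45 genes had a median departure of 0.02. KAP104 departed by 0.85 (95% interval 0.03 to 1.68) and SUB2 by 0.81 (-0.09 to 1.71), both on the side of a smaller fall than the sum. NUP159 departed by -0.99, with an interval from -2.69 to 0.72. POM33, at 0.49, had an interval from -0.78 to 1.75. Of these intervals only that of KAP104 lay wholly on 1 side of 0, and they are not adjusted for the number of genes tested. With 2 samples per strain, none of these departures passed after adjustment. All 3 strains were measured against wild-type RNA, which the comparisons share.

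**Figure D4:**
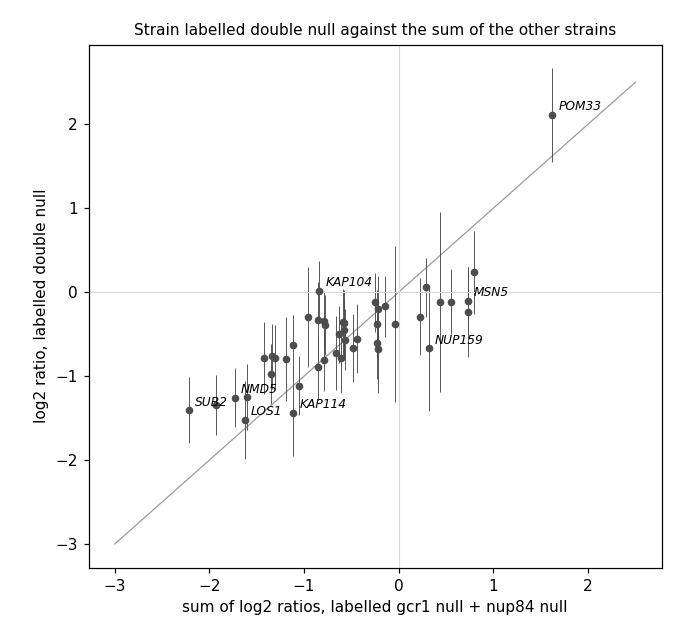
Log2 ratio in the strain labelled double null (vertical axis) against the sum of the log2 ratios in the strain labelled gcr1 null and the nup84 null (horizontal axis) for the 45 genes. Vertical bars are the SE of the departure from the sum and the line marks equality. POM33 lies at the upper right, SUB2 at the lower left above the line, and no departure passed the test.

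Other genes of the transport pathway were read from a list of 38, of which 37 were measured. In the strain labelled gcr1 null 13 fell and 1 rose, in the nup84 null 5 fell and 1 rose, and in the strain labelled double null 13 fell and 2 rose. Among all genes 17.7%, 8.09% and 18.9% fell and 17.2%, 8.61% and 20.5% rose, and these shares are the background of every count below. The list holds the Ran system, mRNA export proteins and pore membrane neighbours. Of the 9 Ran system genes 5, 0 and 3 fell. SRM1, encoding the Ran exchange factor, fell to -1.02 and -1.11 in the strains labelled gcr1 null and double null, and RNA1, encoding the Ran GTPase-activating protein, to -1.03 and -1.15. GSP2, the minor Ran gene, rose to 1.15 ± 0.24 in the nup84 null and 1.53 ± 0.24 in the strain with the double null label (adjusted p = 0.0157 and 0.00151), and read 0.54 in the strain labelled gcr1 null. GSP1, the major Ran gene, fell to -0.90 in the strain labelled gcr1 null.

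Of the 20 measured mRNA export neighbours 7, 5 and 10 fell. HMT1, the arginine methyltransferase gene, fell to -1.72, -0.98 and -0.72 in the strain labelled gcr1 null, the nup84 null and the strain labelled double null. DBP2, an RNA helicase gene, fell to -1.49, -0.96 and -1.62. STO1, encoding the large cap-binding subunit, fell to -1.24 and -1.71 in the strains labelled gcr1 null and double null, and NPL3, encoding an mRNA-binding shuttling protein, to -1.38, -1.01 and -1.14 in the 3 strains. In the Nup84 complex itself 2 of 7 genes fell in the strain labelled gcr1 null, 1 in the nup84 null and 3 in the strain labelled double null. The 1 in the nup84 null was the deleted gene NUP84, which was also 1 of the 3 in the strain labelled double null. NUP120 fell to -1.18 and -1.22 and NUP145 to -0.73 and -0.89 in the strains labelled gcr1 null and double null.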

How the data were processed

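Each probe had 1 deposited value per array, taken as a log2 ratio (Cy5 over Cy3). The table states neither log base nor direction; both were inferred from the values, the dyes per the labels and NUP84. The authors' normalization is not given in the files or labels, and channel intensities were not used. Of 10807 probes 9271 had 1 gene in the platform annotation. Signs of arrays 3 and 4 were turned, the probes of a gene averaged and each array centred on its median (from -0.163 to 0.099 before). The 45 genes had 1 probe (12 genes) or 2 (33 genes), whose values differed by at most 0.20.

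Pair means were fitted with limma 3.58.1 in R 4.3.3 under both possible swap pairings (arrays 1 with 3 and 2 with 4, or 1 with 4 and 2 with 3), keeping the larger p, SE and interval, with all strains in 1 fit. Pair means differed with an SD over genes of 0.497, 0.421 and 0.807 in the strain labelled gcr1 null, the nup84 null and the strain labelled double null for the first pairing, and 0.175, 0.177 and 0.206 for the second. The script was tested on simulated data. Depth does not apply to arrays; their number limits precision.

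The genes and lists were chosen with earlier results of these data known. Values on each array were given for up to 8 called genes per strain by size and strain means for the paralog pairs; array values of MLP1, MLP2, NUP159, NUP170, NUP60 and YRA1 were added after seeing them. Alternatives were no centring, scale normalization, each pairing alone, arrays as replicates, 1 probe per gene, a replicate block, each strain alone and leaving out array pairs. Plots used matplotlib 3.10.9 (Python 3.11.15). Whether probes tell related genes apart was not checked.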

Additional observations from a re-analysis of the deposited data

Results flagged for a closer look

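YRA1 lay below wild type on all 4 arrays of the strain labelled gcr1 null and above it on all 4 arrays of the nup84 null. The difference was -0.62 and did not pass the test of the difference itself (limma, adjusted p = 0.49, 95% interval -1.35 to 0.11). No array stood apart from the other 3 of its strain by Dixon's test in any of the 135 gene and strain combinations. With 4 values this test can flag only a lone array far from the other 3. Arrays split into pairs, as for MLP1, cannot be flagged by it.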

How the results depend on the processing

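The counts of the 45 genes passing depended on how arrays were paired and on whose spread was used. The order is the strain labelled gcr1 null, the nup84 null and the strain labelled double null, then the strain labelled gcr1 null minus the nup84 null, the strain labelled double null minus the nup84 null, minus the strain labelled gcr1 null, and minus the sum. The reported counts were 15, 3, 17, 0, 0, 0 and 0. When array 1 was paired with 4 and array 2 with 3 they were 40, 33, 39, 26, 34, 21 and 25, and this pairing has the smaller spread. With 4 arrays as replicates they were 23, 11, 26, 1, 4, 0 and 1. Leaving out 1 array pair gave 1 to 40, 0 to 32, 11 to 38, 0 to 27, 0 to 33, 0 to 17 and 0 to 25. Scale normalization gave 11 in the nup84 null. Each strain alone gave 13 in the nup84 null and 8 in the strain labelled double null. When an array pair was left out, counts over all genes against wild type moved the same way as those of the 45 genes.

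Sample deviations from the strain means correlated at -0.005 between the strain labelled gcr1 null and the nup84 null, 0.552 between the strains labelled gcr1 null and double null, and 0.099 between the nup84 null and the strain labelled double null. With the second pairing they correlated at 0.004, 0.252 and 0.219. Not every pair of strains was over 0.1, so the replicate numbers were not used as a pairing, although samples of the strains labelled gcr1 null and double null deviated together. With the replicate block 16, 6 and 19 of the 45 genes passed against wild type and 0 in each difference, and in the nup84 null the block added NUP100, NUP60 (higher) and SUB2. No mean of a gene changed sign where it had passed. In the strain labelled double null CSE1, KAP114, KAP122, KAP123, LOS1, NMD5, POM33 and SUB2 passed in every setting run. Over all genes the counts of 1964, 941 and 2224 became 4475, 4192 and 4629 under the second pairing, 1923 under scale normalization in the nup84 null, and 2154 and 1339 for the nup84 null and the strain labelled double null alone. With scale normalization the genes differing between the strain labelled gcr1 null and the nup84 null went from 22 higher and 7 lower to 24 and 22, those between the strain labelled double null and the nup84 null from 42 to 0, and departures from the sum from 0 to 623. Without channel intensities, dim and saturated spots were not marked.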
